A study of Homo sapiens with 6 samples.

Results

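Aminoacyl-tRNA synthetases are the enzymes that join each amino acid to its tRNA, and their genes were followed here in HCT-116 cells, an established human colorectal carcinoma line, after transfection with an antisense GapmeR. The members were chosen by gene name alone, as every row of the expression table whose name is a one-letter amino acid code followed by ARS, with or without a final 1, 2, A or B. The rule found 36 of the 27918 rows, of which 19 are cytosolic enzymes and 17, whose symbols end in 2, are mitochondrial. A GapmeR is a short oligonucleotide with locked nucleic acid ends and a DNA center that directs RNase H to the paired RNA. The 2 groups were HCT-116 cells transfected with a control GapmeR (GapNC) or with a GapmeR against the long non-coding RNA CASC9 (GapC9), and 3 libraries of poly(A) RNA were sequenced for each. Both groups therefore share the cell line and the transfection, and the labels do not say whether the 3 libraries of a group came from separate cultures, so that the p-values measure the spread between these libraries, which may be technical.

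Charging proceeds in 2 steps, in which the enzyme first activates the amino acid with ATP and then passes it to the end of the matching tRNA. Human cells translate in both the cytosol and the mitochondrion, and for most amino acids separate nuclear genes encode the cytosolic and the mitochondrial enzyme. GARS and KARS each serve both compartments from 1 gene, and QARS acts mainly in the cytosol, because mitochondria make glutaminyl-tRNA by another route. The enzymes fall into class I and class II by the fold of their catalytic site, and several cytosolic ones assemble with the scaffold proteins AIMP1, AIMP2 and EEF1E1 into the multisynthetase complex. Many cytosolic synthetase genes are known targets of the transcription factor ATF4, which is made when amino acids are short or the endoplasmic reticulum is stressed.

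Values are FPKM, fragments per kilobase of transcript scaled to the mapped fragments of the library, so levels can be set side by side between genes. The targeted CASC9 was near 0 throughout, at 0, 0.0108 and 0 FPKM in GapNC 1, 2 and 3 and at 0.0528, 0.107 and 0 FPKM in GapC9 1, 2 and 3 (p = 0.4, exact two-sided permutation test, for which 0.1 is the smallest possible p). Values this close to 0 cannot check the labels in either direction, and each direction below is that of the libraries labelled GapC9. GapNC 1 stood apart in base composition. Across rows of at least 1 FPKM, its deviation from the mean of a gene had a Spearman correlation of 0.63 with GC content. The correlation was 0.01 and −0.11 in GapNC 2 and 3, and 0.03, −0.34 and −0.39 in GapC9 1, 2 and 3. GapC9 1 was thus the highest of its group as well. Of the epithelial markers KRT8 was at 316 to 480 FPKM and EPCAM at 62.3 to 88.4 FPKM, whereas VIL1 stayed at or below 0.0481 FPKM. The immune markers PTPRC, LYZ and CD3E were each at or below 0.0299 FPKM, and the row of CD68 joins other genes. Of the fibroblast markers, COL3A1 was at 3.03 to 4.13 FPKM and COL1A1 at 1.06 to 1.54 FPKM. COL1A2, PDGFRB and THY1 were each at or below 0.0858 FPKM.

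The ATF4 response element was looked for in the promoters of the members, because many cytosolic synthetase genes are known targets of ATF4. The element was taken as TGATGNAA on either strand, in the 250 bases before and the 50 bases after each start site of the RefSeq promoter table (GRCh38.p14), in which 29 of the 36 members were found. It occurred in 6 of these 29 promoters (20.7%), in 5 of 15 cytosolic ones (33.3%) and in 1 of 14 mitochondrial ones (7.14%), whereas 1046 of all 27305 promoters held it (3.83%). These 6 windows of 30 bases are shown so that the matches can be read, in the 5′ to 3′ direction of the gene, with the 8 matching bases in capitals.
GARS (chr7:30594834-30594863, plus strand): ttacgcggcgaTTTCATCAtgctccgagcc
NARS (chr18:57621804-57621833, minus strand): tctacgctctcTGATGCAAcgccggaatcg
AARS (chr16:70289675-70289704, minus strand): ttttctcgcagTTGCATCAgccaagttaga
IARS (chr9:92293692-92293721, minus strand): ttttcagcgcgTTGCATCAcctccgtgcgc
MARS (chr12:57488053-57488082, plus strand): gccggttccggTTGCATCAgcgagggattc
YARS2 (chr12:32756076-32756105, minus strand): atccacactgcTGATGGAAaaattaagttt
AARS, IARS and MARS carried the same 8 letters, TTGCATCA, and NARS carried them on the other strand, where they read TGATGCAA on its own. Counting the start site as 0, the first matching base lay at −4 in MARS, −13 in IARS, −33 in GARS, −187 in AARS, −197 in YARS2 and 14 in NARS. A match is a string of letters and not evidence of binding. The 6 genes did not share a direction in the libraries labelled GapC9, since the log2 fold change was 0.27 in GARS, 0.37 in NARS and 0.10 in AARS, and −0.54 in IARS, −0.66 in MARS and −0.49 in YARS2.

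All 36 members passed the filter of a mean of 0.1 FPKM, and 35 had a mean of at least 1 FPKM in both groups. The cytosolic enzymes were the more abundant in every library, with a median over the 19 genes of 34.1, 38.7 and 35.2 FPKM in GapNC 1, 2 and 3 and of 25.6, 27.9 and 27.6 FPKM in GapC9 1, 2 and 3. Each such median is the level of the middle gene, which need not be the same gene in every library. The summed FPKM of the 19 genes differed less, at 792, 755 and 754 in GapNC and at 734, 746 and 751 in GapC9. Their median log2 fold change was −0.04. The median over the 17 mitochondrial genes was between 5.09 and 7.82 FPKM in the 6 libraries. All members together took between 0.539% and 0.586% of the summed FPKM of a library, and the groups overlapped in this share (0.558%, 0.558% and 0.586% in GapNC; 0.539%, 0.570% and 0.576% in GapC9).

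**Figure D1:**
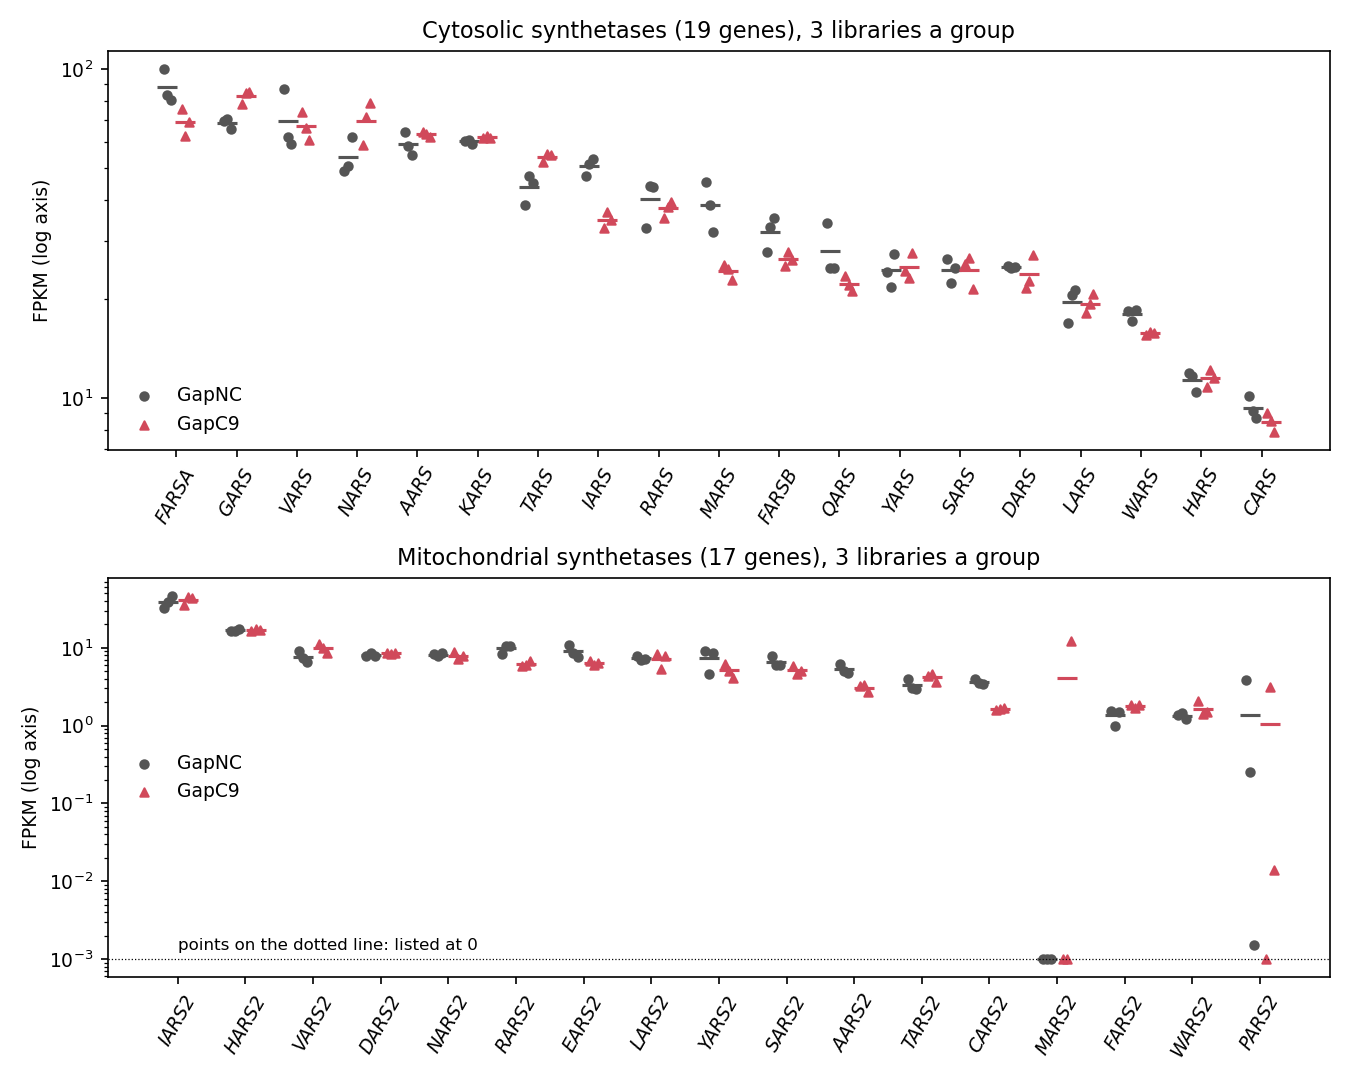
FPKM (log axis) of the 19 cytosolic synthetase genes (upper panel) and the 17 mitochondrial ones (lower panel), each ordered by mean level, in the 3 GapNC libraries (circles) and the 3 GapC9 libraries (triangles), with a short line at each group mean and values listed at 0 drawn on the dotted line. Most genes hold 6 close values, and MARS2 and PARS2 are scattered. In 10 genes, among them CARS2, AARS2, RARS2, IARS and MARS, all GapC9 values lie below all GapNC values, and in 4 genes above them.

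The most abundant members were FARSA and GARS, at means over the 6 libraries of 78.7 and 75.8 FPKM. VARS (68.4 FPKM), NARS (62.0), AARS (61.4) and KARS (61.3) came next, and neighbors among these 6 did not differ beyond the spread of their libraries. The lowest cytosolic genes were HARS, for histidine, at 11.4 FPKM, and CARS, for cysteine, at 8.91 FPKM. HARS was at 11.9, 11.7 and 10.5 FPKM in GapNC and at 10.8, 12.2 and 11.5 FPKM in GapC9, in a row that joins its name to DND1. CARS was at 10.1, 9.15 and 8.74 FPKM in GapNC and at 9.01, 8.52 and 7.89 FPKM in GapC9. In both genes the groups overlapped.

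Among mitochondrial enzymes IARS2, for isoleucine, was the most abundant, at 32.7, 38.6 and 46.6 FPKM in GapNC and 35.3, 45.5 and 43.8 FPKM in GapC9. HARS2 followed at 16.3, 16.3 and 17.5 FPKM in GapNC and 16.4, 17.2 and 16.9 FPKM in GapC9, in a row joined to ZMAT2. Both sets of 6 values overlapped between the groups, and those of HARS2 were close to each other. HARS and HARS2 are neighbors on opposite strands of chromosome 5 whose annotated exons share up to 437 bases, and use of read strand in the counting is not given in the sources used here. At the low end stood WARS2, for tryptophan, at 1.36, 1.46 and 1.22 FPKM in GapNC and at 2.06, 1.41 and 1.48 FPKM in GapC9, with the groups overlapping.

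PARS2 and MARS2, for mitochondrial proline and methionine, gave no usable comparison. PARS2 was listed at 3.81, 0.252 and 0.00152 FPKM in GapNC and at 0, 3.09 and 0.0138 FPKM in GapC9, so that the libraries of each group did not resemble each other. MARS2 was listed at 0 in 5 libraries and at 12.3 FPKM in GapC9 3. MARS2 is a single-exon gene (chr2:197705369-197708387, plus strand, GRCh38) and PARS2 has 2 exons. Rows with a mean of at least 1 FPKM were grouped by the largest exon number among their listed transcripts, where these were annotated. Of 332 rows with 1 exon, 156 (47.0%) were listed at 0 in some library. This held for 10 of 361 rows with 2 exons (2.77%) and 3 of 9424 with 3 or more (0.0318%). The values of these genes are therefore given as listed, with no fold change, and both are left out of the class medians below, except in the closing section.

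Between the groups, 4 of the 36 members passed an adjusted p of 0.05 with limma, and all 4 were lower in the libraries labelled GapC9. They were the mitochondrial CARS2, AARS2 and RARS2 and the cytosolic IARS. These are 11.1% of the members, 5.26% of the cytosolic and 17.6% of the mitochondrial ones. Of the 16028 rows tested, 5.10% were called lower and 1.89% higher, or 6.99% in either direction. All members reach a mean of 1 FPKM over the 6 libraries, which not all of these rows do. Over the 10229 rows that reach it, 5 members were called lower, among 890 rows lower and 310 higher. No member was called higher, although 2 (GARS and TARS) were higher at an unadjusted p under 0.05, beside 7 that were lower at that level (IARS, MARS, FARSA, CARS2, AARS2, RARS2 and EARS2), where 9.09% of all rows were higher and 16.8% lower. At that level the members, at 25%, stood near the 25.9% of all rows and below the 30.8% of rows with a mean of at least 1 FPKM. The groups did not overlap in 4 members that were higher and 10 that were lower in GapC9, or 38.9%, where 34.2% of all rows did not overlap (12.6% higher and 21.6% lower). The study called genes by a ratio of 2 or more, or of 0.5 or less, together with an unadjusted p under 0.05. By this rule CARS2 alone was called, or 2.78% of members, against 6.42% of rows (2.10% higher and 4.32% lower).

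These counts depended on how the libraries were scaled. Median scaling raises every fold change, so that the median over all rows moves from −0.08 to 0.07 on the log2 scale; it left 1 member lower (CARS2) and 1 higher (GARS), while all rows split into 483 higher and 427 lower in place of 303 and 817. A correction for GC content gave 6 members lower (CARS2, AARS2, RARS2, IARS, MARS and FARSB) and 6 higher (GARS, TARS, AARS, VARS, TARS2 and VARS2), among 1280 rows lower and 1135 higher. CARS2 was the member called in the same direction under all 4 scalings. Its log2 fold change was −0.95 after median scaling, −0.97 after quantile normalization and −0.91 after the GC correction.

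**Figure D2:**
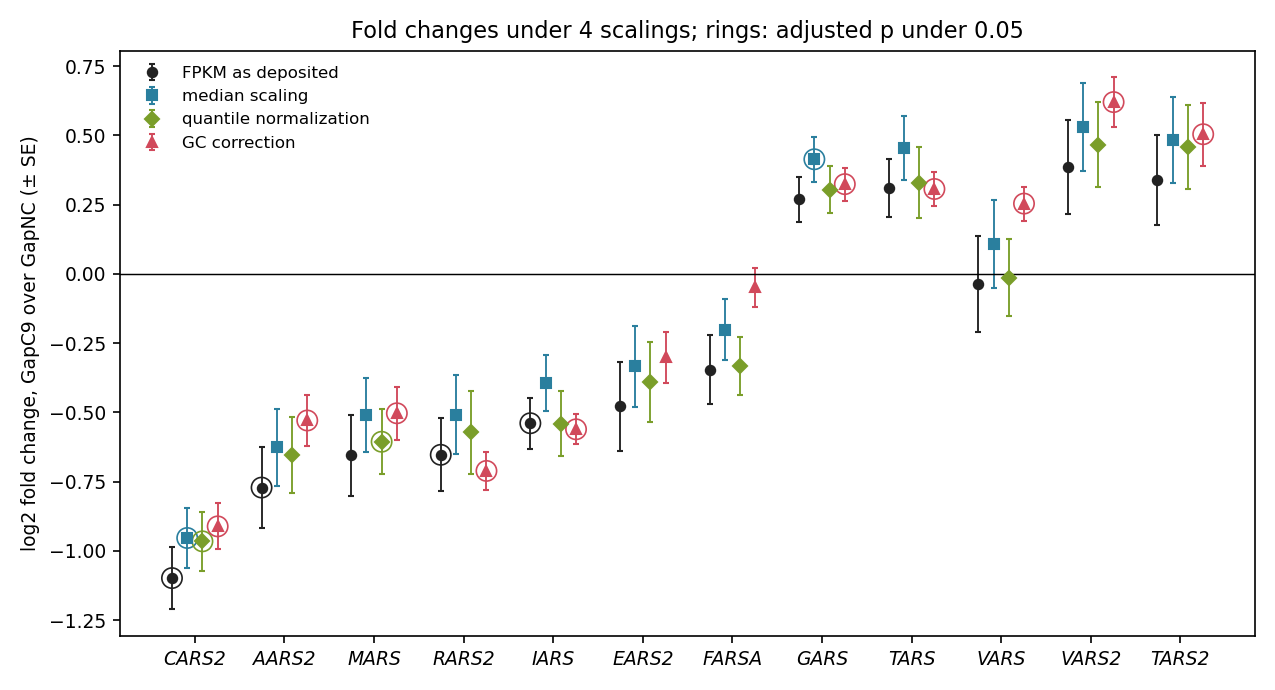
Log2 fold change (GapC9 over GapNC, ± SE of limma, 3 libraries a group) of 12 synthetase genes with FPKM as deposited (circles), after median scaling (squares), after quantile normalization (diamonds) and after GC correction (triangles), with a ring where the adjusted p is under 0.05. CARS2 has a ring under all 4, MARS under quantile normalization and GC correction, and VARS lies just below 0 as deposited and above 0 with a ring after GC correction.

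CARS2, which charges mitochondrial tRNA with cysteine and can also form cysteine persulfides, showed the largest called change. It was at 3.95, 3.53 and 3.44 FPKM in GapNC and at 1.61, 1.65 and 1.68 FPKM in GapC9. The 3 GapC9 libraries were close to each other and all below the lowest GapNC library. The log2 fold change was −1.10 ± 0.11 (SE of limma, n = 3 a group; adjusted p = 0.0159), and the ratio of mean FPKM was 0.452. Leaving out GapNC 1 gave −1.04 (adjusted p = 0.0239), and leaving out GapNC 3 an adjusted p of 0.0497. It did not pass without GapNC 2 or any 1 GapC9 library, where the adjusted p was at most 0.0718. CARS2 lies at chr13:110641412-110713603 on the minus strand, and its annotated exons share up to 326 bases with those of ING1 on the other strand.

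AARS2, the mitochondrial alanyl-tRNA synthetase, was at 6.17, 5.08 and 4.81 FPKM in GapNC and at 3.19, 3.34 and 2.73 FPKM in GapC9. The groups were well apart, with GapNC 1 the highest library. The log2 fold change was −0.77 ± 0.15 (adjusted p = 0.0381). With any 1 library left out it no longer passed, at adjusted p from 0.0574 to 0.123, and without GapNC 1 the log2 fold change was −0.67. The gene lies at chr6:44299654-44313326 on the minus strand and shares up to 235 exonic bases with genes of the opposite strand, among them TMEM151B. Its GC content of 59.1% is above the 51.6% median of the mitochondrial class.

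RARS2 charges mitochondrial tRNA with arginine. It was at 8.42, 10.5 and 10.5 FPKM in GapNC and at 5.89, 5.95 and 6.72 FPKM in GapC9, again with no overlap, and here GapNC 1 was the lowest of its group. The log2 fold change was −0.65 ± 0.13 (adjusted p = 0.0443). Leaving out GapNC 1 gave −0.76 (adjusted p = 0.0324), and without any of the other 5 libraries it did not pass (adjusted p up to 0.154). RARS2 has a GC content of 41.4%, lies at chr6:87514378-87590003 on the minus strand and overlaps no exon of the opposite strand.

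IARS, the cytosolic isoleucyl-tRNA synthetase and a member of the multisynthetase complex, was at 47.5, 51.5 and 53.4 FPKM in GapNC and at 33.0, 36.9 and 34.9 FPKM in GapC9. Every GapC9 library was below every GapNC library by more than 10 FPKM. The log2 fold change was −0.54 ± 0.09 (adjusted p = 0.0314). It was −0.59 without GapNC 1 (adjusted p = 0.0346), and it did not pass without any 1 of the other 5 libraries (adjusted p up to 0.112). IARS lies at chr9:92210207-92293756 on the minus strand, clear of exons of other genes on the opposite strand.

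Leaving out a library lowered the calls over the whole table as well, from 817 rows lower to between 17 and 573, so that a lost call among the members is not particular to them.

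**Figure D3:**
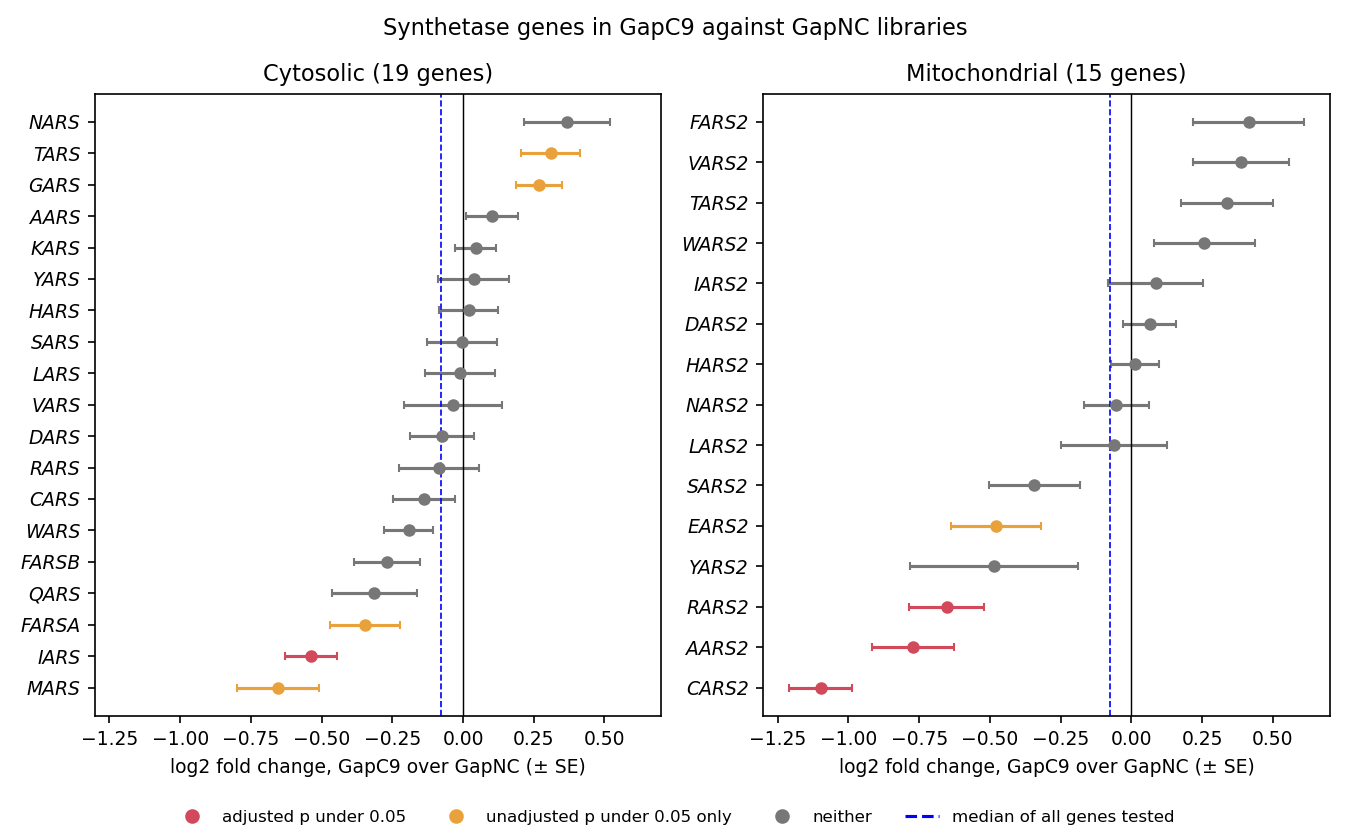
Log2 fold change (GapC9 over GapNC, ± SE of limma, 3 libraries a group) of the 19 cytosolic and of 15 mitochondrial synthetase genes (MARS2 and PARS2 left out), with FPKM as deposited. The dashed line is the median of all rows tested (−0.08); IARS, CARS2, AARS2 and RARS2 are marked as past an adjusted p of 0.05, and MARS, FARSA, EARS2, GARS and TARS as past an unadjusted p of 0.05.

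A further 5 members passed an unadjusted p alone and are given by their values. MARS, which charges both initiator and elongator tRNA with methionine, was at 45.5, 38.7 and 32.1 FPKM in GapNC and at 25.5, 24.7 and 22.9 FPKM in GapC9. Its GapNC libraries spread widely, all above the GapC9 ones, and the log2 fold change was −0.66 ± 0.15 (adjusted p = 0.0539). The adjusted p fell to 0.0444 over rows of at least 1 FPKM, to 0.0461 after quantile normalization and to 0.0255 after the GC correction. MARS (chr12:57475445-57517569, plus strand) shares up to 519 exonic bases with genes of the opposite strand, ARHGAP9 and DDIT3. DDIT3, a stress factor named here after its values were seen, was at 7.16, 5.82 and 4.56 FPKM in GapNC and at 5.0, 4.91 and 2.83 FPKM in GapC9, with overlap of the groups, and its part in the MARS values was not tested.

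FARSA encodes the catalytic subunit and FARSB the other subunit of cytosolic phenylalanyl-tRNA synthetase. FARSA was at 100.4, 83.6 and 80.6 FPKM in GapNC and at 75.6, 62.7 and 69.5 FPKM in GapC9, without overlap (log2 fold change −0.35 ± 0.12, adjusted p = 0.151). FARSB was at 27.9, 33.2 and 35.2 FPKM in GapNC and at 25.3, 27.9 and 26.3 FPKM in GapC9 (−0.27 ± 0.12, adjusted p = 0.212). The ratio of FARSA to FARSB was 3.60, 2.52 and 2.29 in GapNC and 2.98, 2.25 and 2.64 in GapC9, so that it varied as much within the groups as between them. GapNC 1 had the highest FARSA, at a GC content of 61.6%, and the lowest GapNC value of FARSB, at a GC content of 41.6%. After the GC correction FARSB was called lower, and the log2 fold change of FARSA was −0.05.

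EARS2, for mitochondrial glutamate, was at 11, 8.48 and 7.59 FPKM in GapNC and at 6.72, 5.97 and 6.42 FPKM in GapC9. The groups did not overlap, and the log2 fold change was −0.48 ± 0.16 (adjusted p = 0.13). GARS, the glycyl-tRNA synthetase of both compartments, was at 69.5, 70.5 and 66.1 FPKM in GapNC and at 78.4, 84.9 and 85.1 FPKM in GapC9. Here all GapC9 libraries were the higher ones (log2 fold change 0.27 ± 0.08, adjusted p = 0.104), and the adjusted p was 0.0461 after median scaling and 0.0227 after the GC correction. TARS, the cytosolic threonyl-tRNA synthetase, was at 38.8, 47.5 and 45.2 FPKM in GapNC and at 52.3, 55.4 and 55.0 FPKM in GapC9. It too was higher in every GapC9 library (0.31 ± 0.10, adjusted p = 0.133).

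The remaining 27 members had adjusted p-values of 0.195 or more. NARS, for asparagine, came nearest among them, with a log2 fold change of 0.37 ± 0.15 (adjusted p = 0.195). They include the mitochondrial rows that join VARS2, YARS2 and SARS2 to other gene names. VARS2, joined to GTF2H4, was at 9.04, 7.30 and 6.54 FPKM in GapNC and at 11.3, 10.0 and 8.54 FPKM in GapC9, with overlap. YARS2, joined to AC084824.1, was at 9.15, 4.62 and 8.53 FPKM in GapNC and at 6.15, 5.09 and 4.13 FPKM in GapC9, the widest spread within a group among members of that level. SARS2, joined to AC011455.3 and FBXO17, was at 7.88, 5.98 and 5.95 FPKM in GapNC and at 5.86, 4.64 and 4.98 FPKM in GapC9, all GapC9 values being the lower ones (log2 fold change −0.34 ± 0.16, adjusted p = 0.241). KARS was the steadiest abundant member, between 59.2 and 62.8 FPKM in all 6 libraries.

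As classes, the cytosolic and mitochondrial enzymes had like medians. The median log2 fold change was −0.04 over the 19 cytosolic genes (7 above 0 and 12 below) and −0.05 over 15 mitochondrial genes without MARS2 and PARS2 (7 above and 8 below), where it was −0.08 over all rows tested (6993 above and 9035 below). After median scaling these medians were 0.11, 0.09 and 0.07, so that the sign of each class median depended on the scaling. The median size of the log2 fold change, without its sign, was 0.14 in the cytosolic class and 0.34 over these 15 mitochondrial genes, near the 0.33 of all rows. Cytosolic changes ran from −0.66 in MARS to 0.37 in NARS, and mitochondrial ones from −1.10 in CARS2 to 0.41 in FARS2. The mitochondrial class also had the larger median standard error, 0.16 against 0.12. The mean log2(FPKM + 0.1) of the cytosolic class exceeded that of the mitochondrial class, without MARS2 and PARS2, by 2.32, 2.47 and 2.41 in GapNC and by 2.38, 2.53 and 2.52 in GapC9, with overlap of the groups.

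The ratio of the cytosolic to the mitochondrial gene for the same amino acid, taken within a library, does not move when that library is scaled by a constant. It could be formed for 13 amino acids and was used as a description, with no test, since it rests on values already compared above. For cysteine, CARS to CARS2 was 2.57, 2.59 and 2.54 in GapNC and 5.61, 5.16 and 4.69 in GapC9. This was the largest shift of the 13, by 1.0 on the log2 scale, and the GapNC libraries were nearly identical. For alanine the ratio was 10.5, 11.5 and 11.4 in GapNC and 20.3, 19.0 and 22.8 in GapC9 (shift 0.89). For arginine it was 3.91, 4.21 and 4.18 in GapNC and 6.03, 6.44 and 5.90 in GapC9 (shift 0.58). In these 3 amino acids the ratio was higher in every GapC9 library, and the called gene was the mitochondrial one.

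For isoleucine the ratio moved the other way, with IARS to IARS2 at 1.45, 1.33 and 1.15 in GapNC and at 0.937, 0.810 and 0.796 in GapC9 (shift −0.63), so that the cytosolic transcript was the more abundant in each GapNC library and the mitochondrial one in each GapC9 library. For valine it was 9.67, 8.53 and 9.09 in GapNC and 6.55, 6.60 and 7.13 in GapC9 (shift −0.43), where neither gene was called and VARS2 is a joined row. Tryptophan (shift −0.47) and serine (shift 0.34) also gave ratios without overlap, and the other 6 amino acids overlapped. Thus 7 of 13 ratios did not overlap between the groups, where 34.2% of single rows did not; a background for ratios of paired genes was not computed. For methionine no ratio could be formed in 5 libraries because MARS2 was listed at 0.

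**Figure D4:**
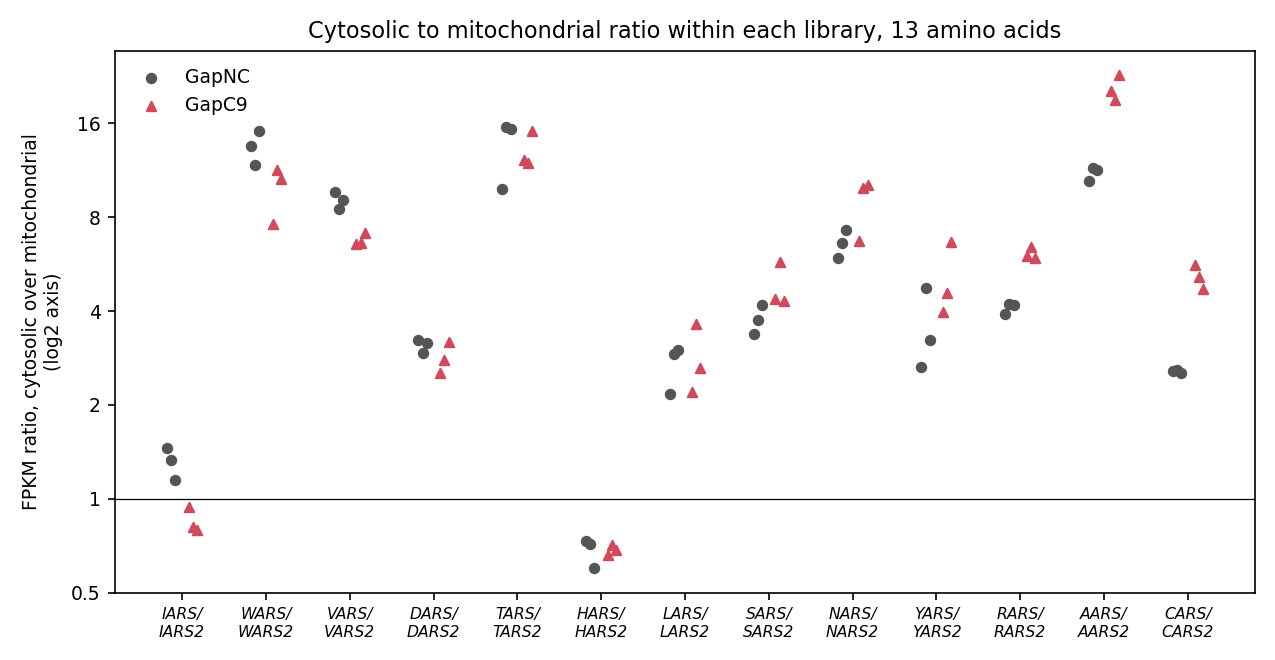
Ratio of cytosolic to mitochondrial FPKM (log2 axis) within each of the 3 GapNC libraries (circles) and 3 GapC9 libraries (triangles) for 13 amino acids, ordered by the shift between the groups, with a line at 1. CARS/CARS2, AARS/AARS2, RARS/RARS2 and SARS/SARS2 are higher in all GapC9 libraries, and IARS/IARS2, WARS/WARS2 and VARS/VARS2 lower.

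The multisynthetase complex holds 7 members (DARS, IARS, KARS, LARS, MARS, QARS and RARS). Of these IARS was called lower, and 6 lay below 0 and 1 above. Among all rows tested, 5.10% were called lower, and 9035 lay below 0 and 6993 above. The median log2 fold change of the 7 members was −0.08, the value of all rows. After median scaling 3 of the 7 lay below 0 and 4 above, and their median was 0.06. QARS did not overlap between the groups either, at −0.31 ± 0.15 (adjusted p = 0.249), with its highest value, 34.1 FPKM, in GapNC 1. EPRS, which carries the glutamyl and prolyl enzymes of the cytosol in 1 protein and whose name falls outside the rule, was at 54.7, 61.6 and 61.3 FPKM in GapNC and at 36.8, 36.7 and 36.5 FPKM in GapC9. Its GapC9 values were nearly equal and all lower, with a log2 fold change of −0.69 ± 0.09 (adjusted p = 0.0186). It passed as well after median scaling (−0.54), quantile normalization (−0.67) and GC correction (−0.73), and without GapNC 1 (adjusted p = 0.0214), and it did not pass without any 1 of the other 5 libraries (adjusted p up to 0.0970).

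Of the scaffold proteins none was called. AIMP1 was at 14.6, 17 and 11.8 FPKM in GapNC and at 10.5, 11.6 and 7.66 FPKM in GapC9, without overlap (log2 fold change −0.55 ± 0.21, adjusted p = 0.173). AIMP2 had −0.28 ± 0.17 (adjusted p = 0.355), and EEF1E1, whose row joins 4 other names, −0.08 ± 0.09 (adjusted p = 0.636). TARSL2, a second cytosolic threonyl enzyme outside the rule, was at 3.73, 3.86 and 3.89 FPKM in GapNC and at 2.78, 2.44 and 3.12 FPKM in GapC9. It was lower in every GapC9 library (−0.45 ± 0.13, adjusted p = 0.0893), where TARS was higher in every one.

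By structural class, 3 of the 18 class I enzymes were called lower (IARS, CARS2 and RARS2) and 1 of the 18 class II enzymes (AARS2), where 5.10% of all rows were called lower. After median scaling 1 of class I and 0 of class II were lower and 1 of class II higher, and after the GC correction 4 and 2 were lower and 2 and 4 higher. At an unadjusted p 5 class I genes passed, all lower, and in class II GARS and TARS were higher and AARS2 and FARSA lower, where 25.9% of all rows passed. Without MARS2, 13 of 17 class I genes lay below 0 and 4 above, with a median of −0.14. Without PARS2, 7 of 17 class II genes lay below and 10 above, with a median of 0.02. After median scaling, which adds 1 constant to every gene, these medians were 0.0052 and 0.17, so the sign of the first depended on the scaling.

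The steps around charging were described by lists of their genes. No call was made with limma among 8 rows of elongation factors that carry charged tRNA to the ribosome or reload it, in which EEF1A2 has 2 rows. At an unadjusted p 1 row was lower, an EEF1A2 row named here after its values were seen (log2 fold change −0.63, adjusted p = 0.0936), while the other EEF1A2 row was at 0.01. None was called either among 8 mitochondrial partners of charging, such as the amidotransferase and formyltransferase genes (1 higher and 1 lower at an unadjusted p). After the GC correction each of these lists had 1 row higher and 1 lower, and after median scaling 1 mitochondrial partner was higher. Of 21 genes of tRNA processing and export, POP5, a protein subunit of RNase P, was lower, at 8.89, 7.96 and 8.97 FPKM in GapNC and 5.46, 4.85 and 5.58 FPKM in GapC9 (log2 fold change −0.69 ± 0.11, adjusted p = 0.0298). With 1 library left out it passed in 1 of 6 fits (adjusted p up to 0.117). In that list 6 genes lay above 0 and 15 below, with a median of −0.18, and after median scaling 10 lay above and 11 below. Among all rows tested, 5.10% were called lower, 6993 lay above 0 and 9035 below, and the median was −0.08.

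Of 31 tested genes on a list of the ATF4 amino acid response, from which the synthetases were left out, 3 were called higher and none lower. Of all rows, 1.89% were called higher. ATF3, a stress-induced transcription factor, was at 5.84, 6.64 and 5.6 FPKM in GapNC and at 12.1, 13 and 11.7 FPKM in GapC9 (log2 fold change 1.02 ± 0.11, adjusted p = 0.0159). ASNS, the asparagine synthetase that makes the amino acid itself and is no tRNA enzyme, was at 18.6, 22.0 and 22.1 FPKM in GapNC and at 29.9, 33.5 and 33.1 FPKM in GapC9 (0.62 ± 0.11, adjusted p = 0.034), in a row with 2 further names. GDF15, a secreted stress factor in a row joined to PGPEP1, was at 11.6, 8.55 and 11 FPKM in GapNC and at 15.2, 19.2 and 19.5 FPKM in GapC9 (0.79 ± 0.17, adjusted p = 0.0477). In all 3 the GapC9 libraries were above the GapNC ones. With 1 library left out, ATF3 and ASNS each passed in 1 of 6 fits (adjusted p up to 0.0796 and 0.131) and GDF15 in 0 of 6 (up to 0.163). The list had 4 genes higher after median scaling or quantile normalization and 9 after the GC correction, which also raised the calls over all rows. CHAC1, which degrades glutathione, passed the thresholds of the study, at 1.45, 0.336 and 0.336 FPKM in GapNC and 2.20, 1.86 and 1.79 FPKM in GapC9 (adjusted p = 0.119). At an unadjusted p under 0.05, 7 genes of the list were higher and 3 lower, where 9.09% of all rows were higher and 16.8% lower. The median of the list was 0.03, with 17 genes above 0 and 14 below. The element TGATGNAA occurred in 5 of the 26 promoters of the list that were found (19.2%).

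Base composition moved with some of these values. GC content had a median of 49.8% in the cytosolic, 51.6% in the mitochondrial class and 49.6% over all rows tested. Across the 36 members the deviation of GapNC 1 from the gene's mean had a Spearman correlation of 0.66 with GC content, against −0.10 and −0.31 in GapNC 2 and 3 and 0.15, −0.11 and −0.44 in GapC9 1, 2 and 3. VARS, at a GC content of 61.3%, was at 87.4 FPKM in GapNC 1 and at 59.4 to 74.2 FPKM in the other 5 libraries. Its log2 fold change was −0.04 with all libraries, 0.14 without GapNC 1 and 0.25 after the GC correction. The log2 fold change correlated with GC content at −0.17 across the members and at −0.34 across rows of at least 1 FPKM. These are descriptions across genes, which share their libraries and are not independent replicates.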

How the data were processed

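RNA-seq of HCT-116 cells was used, with 3 GapNC and 3 GapC9 libraries grouped by the sample labels. The authors aligned reads with HISAT and deposited FPKM computed by StringTie, without counts. Per the labels the tools were HISAT2 2.0, StringTie 1.3.0 and Bowtie 0.12.2. The only build these notes list is a mouse one, so the human build is not given in the sources used here. No counting error can be given without counts, and edgeR, named in the methods of the study, was not used. No per-library column was left out (0 unused).

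In R 4.3.3, limma 3.58.1 (lmFit, eBayes with a trend) was fitted to log2(FPKM + 0.1) of the 16028 rows whose mean reached 0.1 FPKM, and p-values had Benjamini-Hochberg adjustment over all of them. This scale understates the change of low genes. Other steps used Python 3.11.15, pandas 2.3.3 and version 1.17.8 of data.table. Gene positions, exons and base composition were read from GENCODE (GRCh38) through the listed transcripts, and promoters from RefSeq. The method was tested on simulated data.

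The members and lists were chosen with earlier results of these data known, and no list was tested. All members could be named. Values in each library are given for members past an adjusted or unadjusted p of 0.05, the 2 highest and 2 lowest of each class, joined rows and rows listed at 0. List genes are named where called, with EPRS, TARSL2, AIMP1, AIMP2 and EEF1E1.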

Additional observations from a re-analysis of the deposited data

How the results depend on the processing

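The 4 members called lower and 0 called higher were compared under 17 alternative fits. No direction of a member past an unadjusted p of 0.05 turned in any of these fits. The thresholds of the study and the removal of joined rows and rows listed at 0 were also compared, without a new fit. Members called lower numbered 1 without a filter on low values, 1 after median scaling, 2 after quantile normalization, 2 without the variance trend and 1 with the thresholds of the study, and members called higher 1 after median scaling and 6 after GC correction. With 1 library left out, 0 to 3 members were lower and 0 higher. The cytosolic and mitochondrial medians, −0.04 and −0.05 as reported, were 0.109 and 0.0916 after median scaling, 0.0087 and 0.0466 after GC correction, and −0.0722 to −0.0353 and −0.0864 to 0.0306 with 1 library left out; quantile normalization gave 0.035 for the mitochondrial one. The mitochondrial medians of this section include MARS2 and PARS2 wherever these were tested. Pseudocounts of 1 and 0.01, a filter of 1 FPKM, no library listed at 0, and robust variances called 4 or 5 members lower.

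Pairing by replicate number was weak over all rows tested: same-numbered libraries deviated together with correlations of 0.097, 0.040 and 0.024, none above 0.1. GapNC 1 and 2 correlated best with their own number, and GapNC 3 with GapC9 2 (0.058). In both groups, however, the correlation with GC content, given above, was highest in replicate 1 and lowest in replicate 3. Whether the libraries share an effect of replicate number was not tested. With the replicate number as a block, 0 members were called lower, as were 0 of all rows, while at an unadjusted p under 0.05 it had 3 cytosolic members higher and 5 lower and 1 mitochondrial member higher and 5 lower, or 38.9% of members against 28.5% of all rows; the 4 genes had adjusted p-values of 0.0608 to 0.0656. Leaving out the joined rows and those listed at 0, an alternative chosen after the values were seen, left 4 members lower and gave a cytosolic median of −0.06. The causes of these changes were not tested, except that a fit with 1 library left out, or without the filter, has fewer libraries or more rows to adjust over. Depth in fragments is not given, so the precision of genes near the filter is unknown.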
